A study of Homo sapiens with 6 samples.

Results

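Podocalyxin (PODXL), its sialomucin relatives endoglycan (PODXL2) and CD34, and the linker proteins ezrin (EZR), radixin (RDX) and moesin (MSN) were followed in human HK-2 cells exposed to TGF-β1. These 6 genes are 6 of 36978 named entries on the primary chromosomes, and each was found by its name as 1 entry on its own chromosome. PODXL was selected on its measured rise, its counts in TGF-β1 against control libraries, so its values are given as a description without a test. The other 5 genes were picked as family members or as partners, and 5 of the 6 genes had enough reads to enter the fit across 14860 genes, CD34 being the exception. HK-2 is an immortalized line of human proximal tubular epithelial cells, and all results come from this 1 line. Poly(A) mRNA was sequenced from 3 control libraries of untreated wild-type cells and from 3 libraries of wild-type cells given TGF-β1, each at 24 hours. The labels describe growth medium with serum, whereas the methods of the study describe treatment with TGF-β in medium without it. The dose used for sequencing was not given in the labels.

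Podocalyxin is a heavily sialylated membrane protein of the podocyte foot process, where its negative charge keeps neighboring membranes apart, and it is also found on endothelium and on apical surfaces of some epithelia. Its short cytoplasmic tail binds ERM proteins and the PDZ scaffolds NHERF1 and NHERF2. ERM proteins (ezrin, radixin and moesin) hold membrane proteins by an N-terminal FERM domain and F-actin by their C-terminal end, and they open into this linking form when phosphoinositides bind and a threonine near the C terminus is phosphorylated. Ezrin is the classic ERM protein of epithelial brush borders, and moesin is the common one of leukocytes and endothelium.

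The ends of the coding sequences are shown because they hold the actin-binding end of the ERM proteins and the cytoplasmic tail ends of the CD34 family, and because they show how far reads of one gene could be mistaken for another. Each line gives the last 90 coding bases with the stop codon, 5′ to 3′ on the coding strand, from GENCODE v29 transcripts on GRCh38, and each stretch lies within 1 exon. Capitals mark bases that were identical in all 3 members of the same family, counted back from the stop codon. The positions are chr6:158766914-158767003 for EZR (minus strand), chr11:110231869-110231958 for RDX (minus strand), chrX:65739804-65739893 for MSN (plus strand), chr7:131504311-131504400 for PODXL (minus strand), chr3:127672391-127672480 for PODXL2 (plus strand) and chr1:207887738-207887827 for CD34 (minus strand).
EZR: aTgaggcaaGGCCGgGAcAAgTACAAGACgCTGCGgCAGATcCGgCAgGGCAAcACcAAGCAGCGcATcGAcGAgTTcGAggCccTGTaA
RDX: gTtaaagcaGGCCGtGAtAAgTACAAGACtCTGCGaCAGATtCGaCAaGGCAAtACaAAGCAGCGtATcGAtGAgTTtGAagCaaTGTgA
MSN: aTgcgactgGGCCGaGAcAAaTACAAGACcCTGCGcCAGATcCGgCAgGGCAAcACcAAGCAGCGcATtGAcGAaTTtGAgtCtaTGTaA
PODXL: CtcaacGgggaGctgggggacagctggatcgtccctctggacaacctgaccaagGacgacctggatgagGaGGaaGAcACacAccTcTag
PODXL2: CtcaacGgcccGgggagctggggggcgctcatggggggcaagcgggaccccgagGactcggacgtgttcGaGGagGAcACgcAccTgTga
CD34: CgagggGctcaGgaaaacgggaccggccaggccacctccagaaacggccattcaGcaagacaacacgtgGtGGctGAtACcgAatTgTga

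In the ERM family 62 of the 90 bases were identical in all 3 genes (68.9%), and in the CD34 family 14 of 90 were (15.6%). EZR and MSN were the closest pair in this stretch, with 84.4% identity, against 75.6% for EZR and RDX and 72.2% for RDX and MSN. PODXL and PODXL2 shared 45.6% of these bases, and PODXL and CD34 shared 32.2%. Over the whole transcripts the longest identical run between any 2 members of the same family was 32 bases, between EZR and MSN. Pairs across the 2 families were not compared in this way. None of the 150-base windows of the 6 transcripts occurred in the same orientation in a transcript of another annotated gene. The reverse orientation was not searched, so the 555 exon bases that EZR shares with SYTL3 on the opposite strand could not be found this way. The PODXL transcript compared here had 2105 bases of the 5986 exon bases that the files list, so the rest of its length was not compared. The files hold no entry named as a pseudogene of a member.

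Total counts lay between 21.9 and 26.9 M per library, 0.396% to 0.464% of them on unnamed loci. Values between libraries are given as CPM, read counts relative to the library size after scaling by the TMM factors of edgeR. Levels between genes are given as TPM, which corrects for gene length but is not scaled by TMM. Sums over several genes are also in TPM, so their differences between groups include this difference in scaling. Tests are those of the edgeR quasi-likelihood fit with Benjamini-Hochberg adjustment over all 14860 genes, with a call at any adjusted p below 0.05. With total counts only in place of TMM the median over all genes shifted by -0.11 on the log2 scale, the calls went from 3294 higher and 3288 lower to 2134 higher and 4590 lower, and none of the 3 called members changed direction. The labels do not say that replicates were separate cultures, so p-values measure the spread between these libraries, which may be technical. TGF-β1 replicate 1 stood apart in its effect on the fit. Without it 7196 genes were called, against 6582 with all libraries and 5333 to 5879 without any other library. Marker RNA of the proximal tubule was uneven. PAX8, a kidney epithelial transcription factor, had 206 ± 8.03 TPM in control (SD, n = 3), whereas LRP2, the megalin receptor of the proximal tubule, was listed at 0 in all 6 libraries and HNF4A was at 0 in control. A 0 in these files can come from the counting or from no expression, and the 2 cannot be told apart for LRP2, C1GALT1C1, MUC4, MUC20 or SPN. MUC4 and MUC20 are each listed with 8 entries and C1GALT1C1 with 2, against 1 for LRP2 and SPN. Whether several entries of a name lowered its counts was not tested. Of 13 markers of the proximal tubule, 6 passed the count filter, and their summed level was 284 to 309 TPM in control and 163 to 182 TPM after TGF-β1. That sum is mostly PAX8 and GGT1, which were called lower together with MME, while AQP1 (log2 fold change 2.10, edgeR adjusted p 0.00148) and CUBN (0.82, edgeR adjusted p 0.0308) were called higher from levels under 1 TPM.

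PODXL RNA was present in control cells and much higher after TGF-β1. PODXL (gene-PODXL, GRCh38 chromosome 7, 131500271 to 131556628, minus strand) had 461, 497 and 461 counts in the control libraries and 4550, 4727 and 3802 counts in the TGF-β1 libraries. This corresponds to 20.4, 20.3 and 19.6 CPM in control and 175, 196 and 182 CPM after TGF-β1. Every TGF-β1 library lay far above every control library, and the spread within a group was small, with a coefficient of variation of 2.10% in control and 5.75% after TGF-β1. The fitted log2 fold change was 3.19 ± 0.06 (SE), a 9.14-fold difference with a range of 1 SE from 8.74 to 9.55. Among the 14860 genes this was rank 71 from the largest rise. Per length, PODXL went from 11.2 ± 0.0735 TPM to 94.3 ± 7.84 TPM (SD, n = 3). It stood between ranks 8569 and 8732 of the 36978 entries by TPM in control and between ranks 1822 and 2102 after TGF-β1. Of these entries, 20191 to 21005 had any TPM in the control libraries and 19890 to 20304 in the TGF-β1 libraries.

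**Figure D1:**
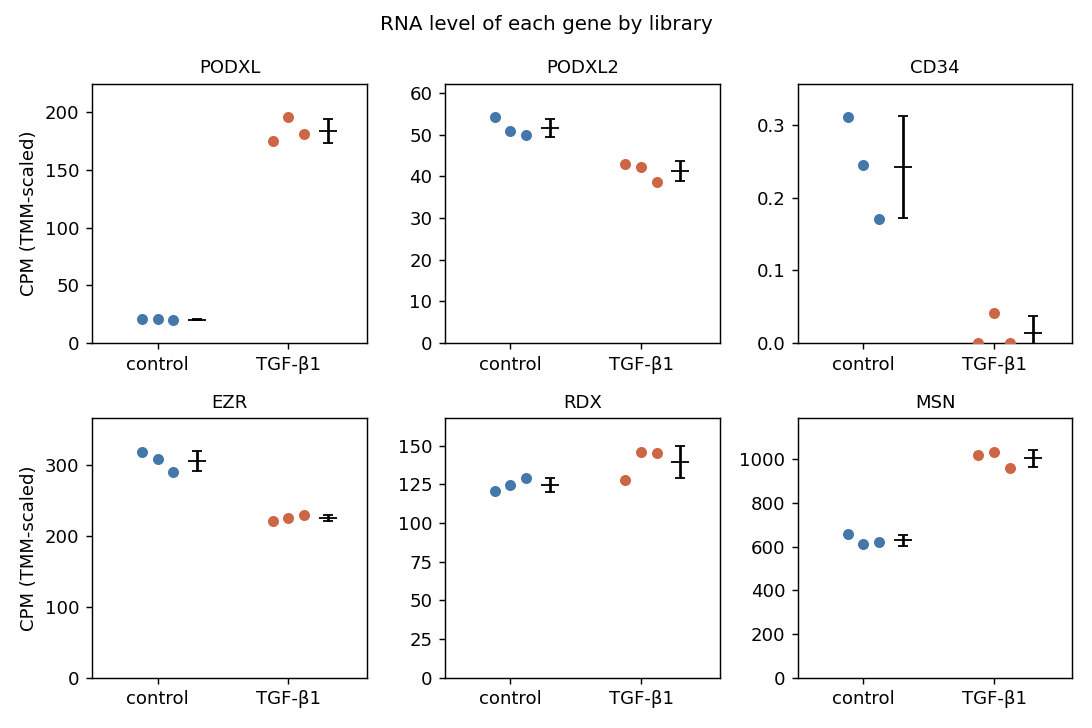
TMM-scaled CPM of the 6 genes in each library, with 1 panel per gene and its own vertical axis starting at 0. Points are libraries (3 control, 3 TGF-β1), and the black mark and bar beside them are the mean and SD; the lower bar of CD34 after TGF-β1 is cut at 0. The groups overlap for RDX alone of the 6, and PODXL goes from a mean of 20.1 to a mean of 184 CPM.

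PODXL2 fell while PODXL was higher. PODXL2 (gene-PODXL2, chromosome 3, 127629185 to 127672802, plus strand) encodes endoglycan, a sialomucin that can act as a selectin ligand. It had 54.1, 51.0 and 49.98 CPM in control and 43.1, 42.3 and 38.6 CPM after TGF-β1, from 809 to 1247 counts per library. The highest TGF-β1 library lay below the lowest control library. PODXL2 fell, with a log2 fold change of -0.32 ± 0.06 (SE) at an edgeR adjusted p of 0.00205, which leaves 0.800 of the control level. Its level per length was 79.1 ± 2.04 TPM in control and 58.2 ± 3.01 TPM after TGF-β1. In control PODXL stood at 0.142 ± 0.00402 of the PODXL2 level in TPM, and after TGF-β1 at 1.62 ± 0.127 times that level (SD, n = 3). PODXL2 was therefore the more abundant relative in all 3 control libraries, and PODXL in all 3 TGF-β1 libraries.

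CD34 was close to absent. CD34 (gene-CD34, chromosome 1, 207880972 to 207911125, minus strand) is the sialomucin of hematopoietic progenitors and of capillary endothelium. It had 7, 6 and 4 reads in the control libraries and 0, 1 and 0 reads in the TGF-β1 libraries. All control libraries lay above all TGF-β1 libraries, although the whole difference amounts to 17 reads against 1. Relative to the TMM-scaled library sizes the TGF-β1 level was 0.0583 of control (95% exact interval 0.00139 to 0.372, for counting error only). The exact two-sided permutation test of CPM gave p = 0.1, the smallest that 3 libraries against 3 can give. CD34 did not pass the count filter. With all genes that had a count in the fit, edgeR gave a log2 fold change of -3.67 ± 1.01 (SE) with an adjusted p of 0.0024, and DESeq2 gave -3.99 ± 1.61 with no adjusted p. A library with 0 reads still allows up to 3 counts, or 0.115 to 0.143 CPM.

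Markers of other cell types were measured beside these genes, and endothelial markers were traces. Of 8 endothelial markers, 1 passed the count filter, and their summed level was 0.863 to 1.53 TPM in control and 0.107 to 0.244 TPM after TGF-β1. CDH5, the endothelial cadherin and the marker that passed, had 29, 16 and 17 reads in control and 0 reads in each TGF-β1 library. It was called lower (log2 fold change -7.39 ± 0.88 (SE), edgeR adjusted p 0.00017), a size that rests on 0 reads in the TGF-β1 group. PECAM1 had 5, 4 and 5 reads in control and likewise 0 after TGF-β1. VWF had 2, 1 and 1 reads in control and 0 after TGF-β1. For KDR, TEK, EMCN, TIE1 and CLDN5 the groups overlapped. Among all genes tested, 27.7% had groups without overlap and TGF-β1 lower. TIE1, for example, had 0, 2 and 1 reads in control and 1, 3 and 1 after TGF-β1. The traces of CDH5, PECAM1 and VWF fell between the same libraries as the trace of CD34. Their part in the CD34 result was not tested. Of 8 podocyte markers, WT1 was at 0 in all 6 libraries, while the summed level of the list was 18.4 to 19.3 TPM in control and 11.2 to 11.96 TPM after TGF-β1. Nearly all of that sum was SYNPO, an actin-associated protein, which was 16.9 ± 0.548 TPM in control and 9.63 ± 0.251 TPM after TGF-β1. Among 6 hematopoietic markers CD3E was at 0 in every library and PTPRC at or near 0, and the summed level of the list, 184 to 199.6 TPM in control and 111 to 147 TPM after TGF-β1, was almost all CD68, a lysosomal protein. Among 5 fibroblast markers PDGFRB rose from 0.250 ± 0.0456 to 2.41 ± 0.214 TPM, while the summed level, 71.6 to 86.3 TPM in control and 58.8 to 62.9 TPM after TGF-β1, was almost all LUM, which fell from 77.0 ± 7.78 to 58.5 ± 2.04 TPM. CD68, LUM and SYNPO were thus each above the control level of PODXL. Markers of these kinds moved with treatment beside PODXL, and their part in its rise was not tested. In bulk RNA, fewer cells that express a gene and less RNA per cell cannot be told apart.

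The 3 ERM genes went in different directions. Moesin rose, ezrin fell, and radixin did not pass the test. Among the 4 tested members other than PODXL, 1 was higher and 2 were lower, where 22.2% of all genes tested were called higher and 22.1% lower. The groups did not overlap for 3 of these 4, where that held for 55.6% of all genes tested (27.9% with TGF-β1 higher and 27.7% with it lower).

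MSN (gene-MSN, chromosome X, 65588382 to 65741931, plus strand) had 658, 610.1 and 620.2 CPM in control and 1019, 1033 and 961 CPM after TGF-β1. The lowest TGF-β1 library exceeded the highest control library by a wide margin relative to the spread. MSN rose 1.596-fold, a log2 fold change of 0.67 ± 0.06 (SE) with an edgeR adjusted p of 3.7e-06. It was the most abundant of the 6 genes in both groups, with 455 ± 13.9 TPM in control and 669 ± 29.9 TPM after TGF-β1 (SD, n = 3).

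EZR (gene-EZR, chromosome 6, 158765744 to 158819368, minus strand) had 318, 308 and 290.3 CPM in control. After TGF-β1 the libraries had 222, 225 and 229.8 CPM. All 3 TGF-β1 libraries lay below all 3 control libraries, and the TGF-β1 values were the tighter group. EZR fell to 0.738 of control, a log2 fold change of -0.44 ± 0.05 (SE) with an edgeR adjusted p of 6.8e-05. Its level was 325 ± 9.07 TPM in control and 221 ± 9.39 TPM after TGF-β1. EZR shares 555 exon bases, or 17.8% of its exon length, with SYTL3 on the opposite strand, and whether counting used strand was not stated. SYTL3 had 459, 469 and 506 counts in control and 324, 326 and 253 after TGF-β1, against 4813 to 7536 for EZR, and it also fell (log2 fold change -0.68 ± 0.08 (SE), edgeR adjusted p 4e-05). EZR-AS1, another gene on that strand, shares 24 exon bases with EZR and had 0 to 3 reads per library.

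RDX (gene-RDX, chromosome 11, 110174922 to 110296614, minus strand) had 120.5, 124 and 129 CPM in control and 128, 146 and 146 CPM after TGF-β1. The groups overlapped, since TGF-β1 replicate 1 lay just below the highest control library. The log2 fold change was 0.16 ± 0.06 (SE) with an edgeR adjusted p of 0.0573, so RDX was not called. Without TGF-β1 replicate 1 the value was 0.21 with an adjusted p of 0.000632, and across 13 alternatives the adjusted p ranged from 0.000632 to 0.50. Its level was 76.8 ± 4.04 TPM in control and 79.3 ± 8.05 TPM after TGF-β1.

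The share of moesin in ERM RNA was higher in every TGF-β1 library than in any control library. A share of the summed ERM level within a library does not depend on scaling between libraries. MSN made up 53.6%, 52.2% and 53.6% of the summed TPM of the 3 genes in the control libraries and 70.1%, 69.4% and 67.5% after TGF-β1. The means were 53.1 ± 0.815% and 69.0 ± 1.33% (SD, n = 3), a difference of 15.9 percentage points. EZR made up 38.1%, 38.8% and 36.9% in the control libraries and 22.4%, 22.3% and 23.8% after TGF-β1, a difference of -15.1 points. Both shares were separated completely between the groups, and both gave p = 0.1 in the exact two-sided permutation test, its smallest value here. The shares of a library add up to the whole, so a higher MSN share lowers the others and these are not separate results. The RDX share was 8.96 ± 0.578% in control and 8.17 ± 0.636% after TGF-β1, with overlapping groups (exact permutation p = 0.3). The level of MSN was 1.40 ± 0.0531 times that of EZR in control and 3.03 ± 0.161 times after TGF-β1 in TPM. The summed level of the 3 ERM genes was 857 ± 15.1 TPM in control and 970 ± 38.9 TPM after TGF-β1. The ratio of these sums was 1.13 (exact permutation p = 0.1). Unlike the shares, this ratio depends on scaling between libraries, and TPM is not scaled by TMM.

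**Figure D2:**
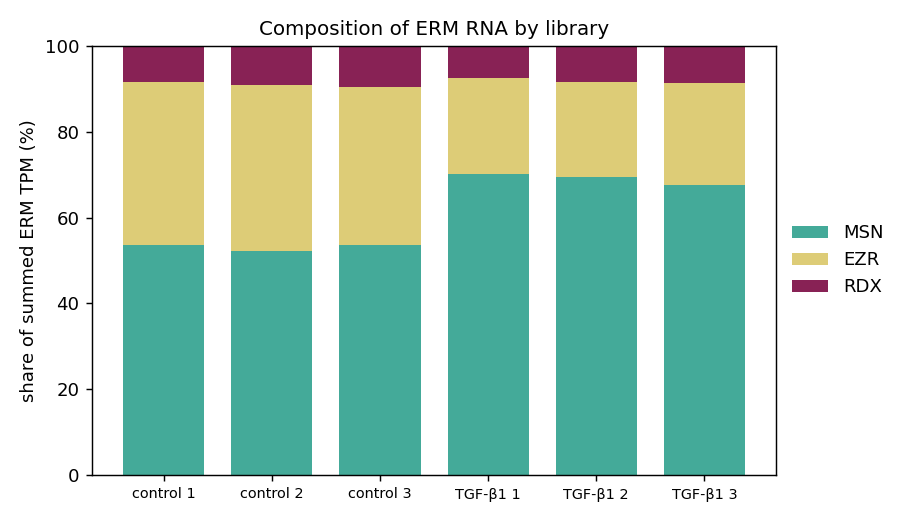
Share of MSN, EZR and RDX in the summed TPM of the 3 ERM genes, in percent on a scale from 0 to 100, with 1 stacked bar per library. The MSN share is 52.2% to 53.6% in the control bars and 67.5% to 70.1% in the TGF-β1 bars, while the EZR share is 36.9% to 38.8% and 22.3% to 23.8%.

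PODXL was also set against the sum of its linkers. It stood at 0.0128, 0.0134 and 0.0130 of the summed ERM level in the control libraries. After TGF-β1 the ratio was 0.0924, 0.101 and 0.0980, which is 7.44-fold higher by the means. This is a description, since it follows the rise for which PODXL was picked. In every library the summed ERM level in TPM exceeded the PODXL level.

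By level per length, the order in control was MSN, EZR, PODXL2, RDX, PODXL and CD34. PODXL2 and RDX were not separated, since their libraries overlapped and their means differed by a ratio of 1.03. After TGF-β1 the order was MSN, EZR, PODXL, RDX, PODXL2 and CD34. PODXL and RDX were close neighbors, with a ratio of 1.19, the lowest PODXL library at 86.7 TPM and the highest RDX library at 84.5 TPM. All other neighbors in both orders were separated in every library.

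The PDZ scaffolds NHERF1 and NHERF2 tie podocalyxin and ERM proteins together, and NHERF3 and NHERF4 were listed beside them as relatives. Of 4 scaffold genes 3 were tested, and 2 of them were higher and 0 lower, where 22.2% of all genes tested were higher and 22.1% lower, with a median log2 fold change of 0.31 against 0.01 for all genes. SLC9A3R2, which encodes NHERF2, had 8.37, 9.24 and 8.78 CPM in control and 18.4, 14.1 and 14.7 CPM after TGF-β1. NHERF2 RNA thus rose, with a log2 fold change of 0.84 ± 0.11 (SE) at an edgeR adjusted p of 0.00011. PDZK1, which encodes NHERF3, rose from 67.3 ± 2.16 to 83.4 ± 11.3 CPM (SD, n = 3; log2 fold change 0.31 ± 0.09 (SE), edgeR adjusted p 0.0153). The PDZK1 call did not hold with total counts only (0.20, adjusted p 0.0850) or without control replicate 1, control replicate 3, TGF-β1 replicate 1 or TGF-β1 replicate 2, where the value was 0.19 to 0.33 and the adjusted p 0.0505 to 0.0645. SLC9A3R1, which encodes NHERF1, had 36.3 ± 2.16 CPM in control and 39.0 ± 1.74 CPM after TGF-β1 and was not called. With total counts only the SLC9A3R1 log2 fold change went from 0.10 to -0.00. PDZD3, which encodes NHERF4, did not pass the count filter.

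Genes of apical delivery of podocalyxin were lower in 8 of 14 cases. All 14 were tested and 2 were higher, where 22.1% of all genes tested were lower and 22.2% higher, and the median log2 fold change was -0.32. SYTL2, a Slp family effector that tethers Rab27 vesicles at the apical membrane, had 73.2, 68.8 and 67.0 CPM in control and 18.0, 19.6 and 19.5 CPM after TGF-β1. The SYTL2 groups were far apart, and it fell by 1.88 ± 0.07 (SE) on the log2 scale with an edgeR adjusted p of 5.1e-09. RAB27B, one of the Rab27 GTPases, had 21.0, 20.4 and 21.0 CPM in control and 5.91, 7.20 and 7.16 CPM after TGF-β1, a log2 fold change of -1.62 ± 0.09 (SE) with an edgeR adjusted p of 1.5e-07. These were the 2 genes of the list that fell at least 2-fold, which 5.38% of all genes tested did, while 3.68% rose as much. The other 6 that fell are named because they passed the test, and their log2 fold changes were -0.67 for RAB3B, -0.65 for SYTL4, -0.50 for ARF6, -0.44 for RAB3IP, -0.41 for RAB27A and -0.24 for PARD3, a polarity scaffold. RAB8A rose by 0.31 ± 0.07 (SE) on the log2 scale with an edgeR adjusted p of 0.00535. RAB35, whose product binds the podocalyxin tail, was called higher at 0.20 ± 0.07 (SE) with an edgeR adjusted p of 0.0385. The RAB35 call was lost with total counts only, where it was 0.09, among genes averaging 50 counts or more (0.18), and without control replicate 2, control replicate 3, TGF-β1 replicate 1 or TGF-β1 replicate 2, where it was 0.13 to 0.21. RAB11A, RAB11FIP5, MYO5B and ANXA2 were not called, although MYO5B was called lower with total counts only (-0.27, adjusted p 0.00498) and among genes averaging 50 counts or more (-0.18, adjusted p 0.0345).

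**Figure D3:**
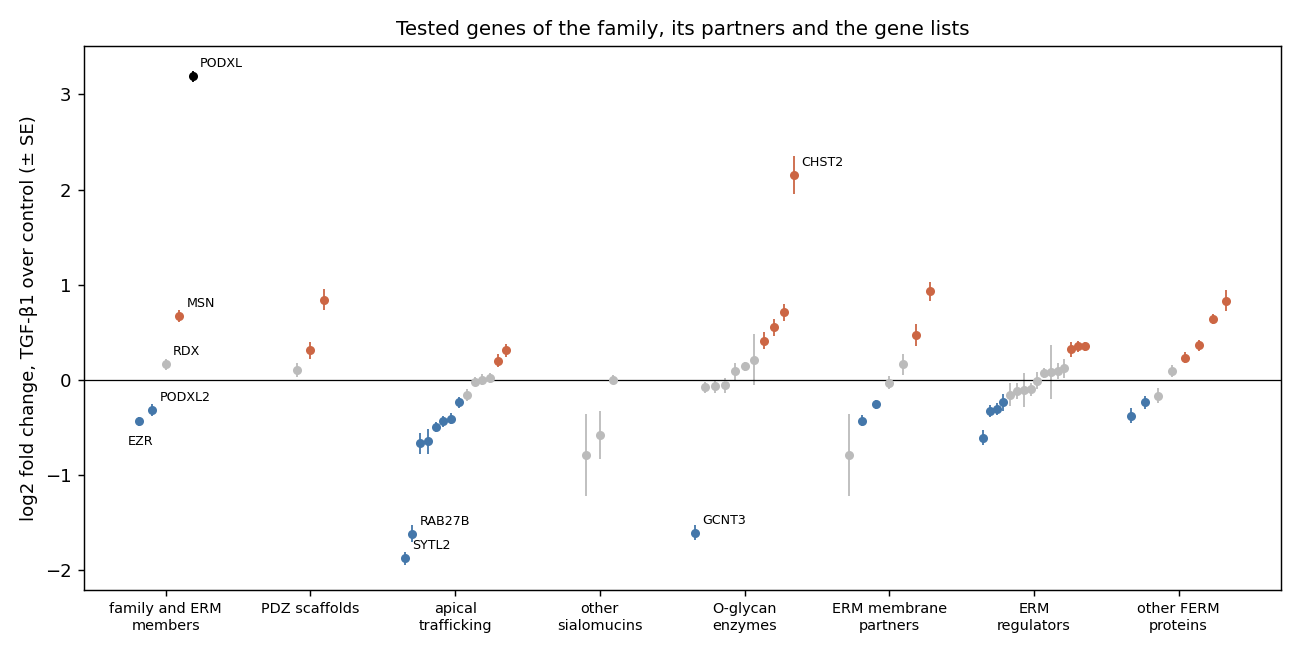
Log2 fold change of TGF-β1 over control (vertical axis) with its SE for every tested gene of the family and of 7 gene lists (columns), sorted within a list. Orange points were called higher and blue points lower at an adjusted p under 0.05, gray points were not called, and PODXL is black because it was not tested. Names are given for the members and for genes changed at least 2-fold, which are SYTL2 and RAB27B among trafficking genes and CHST2 and GCNT3 among O-glycan enzymes.

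Other membrane sialomucins and mucins showed no call. Of 14 genes 13 were listed and 3 were tested, of which edgeR called 0, with 1 at an unadjusted p under 0.05 and 0 called by DESeq2. CD164, endolyn, was the abundant one, with 412 ± 11.5 TPM in control and 379 ± 16.3 TPM after TGF-β1 and a log2 fold change of -0.00 ± 0.05 (SE). MUC1 had 67, 64 and 35 counts in control and 44, 33 and 35 after TGF-β1 (log2 fold change -0.58 ± 0.25 (SE), edgeR adjusted p 0.0848). It was called without control replicate 3 (-0.82, adjusted p 0.0111) and with total counts only (-0.69, adjusted p 0.0440). SELPLG, the third tested gene, was called without TGF-β1 replicate 1 (-1.57, adjusted p 0.00721). SPN, PDPN, MUC4, MUC15, MUC16 and MUC20 were listed at 0 in all 6 libraries.

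Enzymes that build and cap the O-glycans of such proteins were called about as often as genes in general. Of 17 enzymes 11 were tested, 4 were higher and 1 was lower (45.5% called, against 44.3% of all genes tested), and the median log2 fold change was 0.14. CHST2, a sulfotransferase that adds sulfate to N-acetylglucosamine of selectin ligands, had 21, 25 and 24 counts in control and 139, 85 and 92 counts after TGF-β1. Its log2 fold change was 2.15 ± 0.20 (SE) with an edgeR adjusted p of 8e-06, although its level stayed low at 0.797 ± 0.0548 TPM in control and 3.26 ± 0.584 TPM after TGF-β1. GCNT3, a mucin-type enzyme that makes core 2 and core 4 branches, had 19.1, 18.9 and 20.3 CPM in control and 6.53, 6.20 and 6.40 CPM after TGF-β1, and it fell by 1.61 ± 0.08 (SE) on the log2 scale with an edgeR adjusted p of 5.2e-08. The CHST2 and GCNT3 groups were each fully separated. The remaining calls were rises of 0.71 for ST3GAL1, 0.55 for ST3GAL4 and 0.41 for GCNT4, the first 2 of which encode sialyltransferases, and all 3 are named because they passed the test. ST6GALNAC1 was listed at 0 in all 6 libraries, as was C1GALT1C1, although C1GALT1, the enzyme whose chaperone it encodes, had 20.95 ± 1.164 TPM in control.

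Membrane proteins that ERM proteins bind were called in 4 of 7 tests. Of 12 genes 7 were tested, 2 were higher and 2 were lower (57.1% called, against 44.3% of all genes tested), with a median log2 fold change of -0.03. CD44, the hyaluronan receptor, fell from 608 ± 7.04 to 509 ± 14.3 CPM (SD, n = 3; log2 fold change -0.26 ± 0.05 (SE), edgeR adjusted p 0.00193). SDC2, a heparan sulfate proteoglycan, fell from 237 ± 13.0 to 176 ± 4.62 CPM, and its log2 fold change was -0.43 ± 0.06 (SE). ICAM3 rose by 0.47. ICAM1, at 165 ± 6.27 TPM in control, was not called. ICAM3 is named because it passed the test.

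Kinases, small GTPase signaling genes and lipid kinases that act on ERM proteins were called at a share near that of all genes. Of 17 genes 16 were tested, 3 were higher and 4 lower (43.8% called, against 44.3% of all genes tested), with a median log2 fold change of -0.05. RHOA, the GTPase upstream of ERM activation, rose from 454 ± 7.51 to 577 ± 17.6 CPM (SD, n = 3; log2 fold change 0.35 ± 0.05 (SE), edgeR adjusted p 0.00028). ARHGDIA, a GDP dissociation inhibitor that ERM proteins can bind, was not called at 0.09 ± 0.08 (SE). The other calls of this list are named because they passed the test. MAP4K4 rose by 0.35 and PPP1R12A, the targeting subunit of myosin phosphatase, by 0.32. The log2 fold change was -0.61 for PRKCA, -0.33 for STK10, a kinase of the ERM C-terminal threonine, -0.31 for PIP5K1C and -0.24 for CDC42BPA. The CDC42BPA call, at an edgeR adjusted p of 0.0473, was lost with DESeq2 (adjusted p 0.0543) and without any 1 of the control libraries (-0.24 to -0.22, adjusted p 0.101 to 0.132). SLK, ROCK1 and ROCK2 were not called, and ROCK1 was called without TGF-β1 replicate 1 (0.22, adjusted p 0.00232).

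Among 8 other proteins with a FERM domain, all tested, 4 were higher and 2 lower (6 of 8 called, against 44.3% of all genes tested), with a median log2 fold change of 0.16. EPB41L3 had 111, 104 and 108 CPM in control and 165, 176 and 162 CPM after TGF-β1, with no overlap. Its log2 fold change was 0.64 ± 0.05 (SE) with an edgeR adjusted p of 4.1e-06. EPB41L2, the most abundant of the list at 119.8 ± 3.83 TPM in control, was not called at 0.09, but was called without TGF-β1 replicate 1 (0.12, adjusted p 0.0260). NF2, which encodes merlin, the closest relative of the ERM proteins, fell from 119.8 ± 13.7 to 91.7 ± 5.29 CPM (SD, n = 3; log2 fold change -0.38 ± 0.08 (SE), edgeR adjusted p 0.00326). The other calls, named because they passed the test, were 0.83 for EPB41L4A, 0.36 for EPB41, 0.23 for EPB41L1 and -0.24 for EPB41L4B. The EPB41L1 call was lost with total counts only (0.12) and without control replicate 2 (0.19). The EPB41L4B call was lost with DESeq2 and without control replicate 1, control replicate 3, TGF-β1 replicate 2 or TGF-β1 replicate 3, at values of -0.23 to -0.20.

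No tested gene within 500 kb of PODXL was called. MKLN1, which encodes muskelin and points toward PODXL from the plus strand, ends 3634 bases away. It had 181, 172 and 198 CPM in control and 126, 167 and 174 CPM after TGF-β1, and the groups overlapped (log2 fold change -0.24 ± 0.13 (SE), edgeR adjusted p 0.162). Farther out on the same side, LINC-PINT was at -0.06 and MKLN1-AS at -0.40, neither of them called. On the other side the nearest listed gene was LOC107986849, 288432 bases away, with 0 reads in each control library and 1, 2 and 1 reads after TGF-β1. A locus without a name lay 105294 bases from PODXL on that side and is described among the additional observations. LOC107985253 and LOC107985679, which overlap CD34 and MSN without sharing exon bases, had 0 reads in every library.

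The genes whose profile over the 6 libraries was most like that of PODXL were COL1A1, MN1, GDF6, JUNB and SOX9. Likeness was the Euclidean distance between log2 CPM values after subtracting the control mean of each gene, among 10428 genes averaging 5 CPM or more. COL1A1, a fibrillar collagen chain, was nearest at a distance of 0.237 and a log2 fold change of 3.30 ± 0.06 (SE). MN1, a transcriptional coregulator, was at 0.279, with a log2 fold change of 3.10. GDF6, a ligand of the BMP family, was at 0.422, the AP-1 subunit JUNB at 0.438 and the transcription factor SOX9 at 0.446, with log2 fold changes of 2.96, 3.08 and 3.18. Pearson correlations with PODXL over the 6 libraries were 0.994 to 0.9996 for these 5 genes, but the median was 0.995 for all 261 candidates called at least 2-fold higher, whose libraries fall into the same 2 groups. Only 15 candidates had a log2 fold change within 0.5 of that of PODXL.

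**Figure D4:**
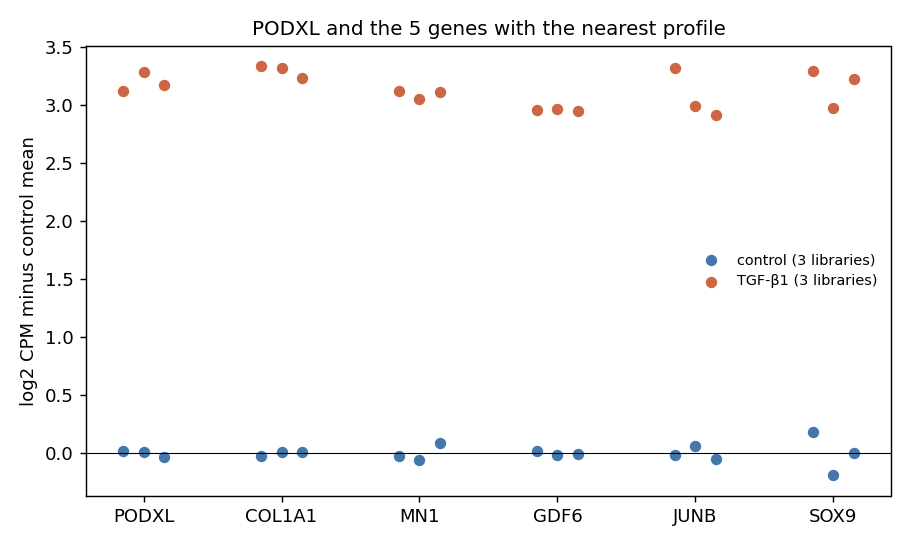
Log2 CPM minus the control mean of the gene (vertical axis) for PODXL and the 5 genes with the nearest profile (columns), with 1 point per library, blue for 3 control and orange for 3 TGF-β1 libraries. TGF-β1 points lie between 2.91 and 3.33, and control points between -0.19 and 0.18.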

How the data were processed

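RNA-seq of HK-2 cells was analyzed from 6 libraries, 3 control and 3 TGF-β1, grouped by the treatment in their labels. Per the methods of the study, mRNA was captured on oligo(dT) beads, paired-end reads were obtained on an MGI DNBseq T7 sequencer, and adapter and low-quality reads were removed. The submitters' processing notes name CASAVA, featureCounts 2.0.1, DESeq2 1.16.1 and hg38 without giving their roles, and the aligner, the annotation release and the use of strand in counting were not given in the sources used here. Per the file headers, each library holds raw counts per gene and the TPM and FPKM values that the authors computed. Gene names and coordinates are as deposited, on GRCh38. A total of 7 records per library were split over several lines and were rejoined.

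Unnamed loci were left out of library sizes and tests. The filter on low counts was filterByExpr (minimum count of 10). TMM scaling and the robust quasi-likelihood F test of edgeR 4.0.16 were used, two-sided, at an adjusted p under 0.05 (Benjamini-Hochberg over 14860 genes). Each SE was derived from the log2 fold change and the root of its F statistic. TPM shares were compared by exact permutation tests. Read ratios have 95% exact binomial intervals from the summed reads. The floor of 3 counts did not enter them and gives only the level that a library without reads still allows. Log2 CPM for profiles had a prior count of 0.5. Coding ends came from GENCODE v29 transcripts. The scripts were tested on simulated data.

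The members, the gene lists and the tests were chosen with earlier results of these data known. Genes were named by a rule, which took the members; called list genes changed at least 2-fold without overlap of the groups, at most 4 per direction, or otherwise the 2 most abundant of a list; the 2 most abundant scaffolds; overlapping genes; the nearest gene on each side of PODXL; and the 5 nearest profiles. Other named genes were chosen after their values were seen. Some genes of the lists are counted but not reported here by name. Alternatives were DESeq2 1.42.0, RLE size factors, scaling by total counts, testing all genes with a count, a mean of at least 50 counts, a replicate block, entries of a name summed, raw-count and FPKM shares, and leaving out each library. Other software was R 4.3.3, limma 3.58.1, Python 3.11.15, pandas 2.3.3, scipy 1.17.1 and matplotlib 3.10.9.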

Additional observations from a re-analysis of the deposited data

Results flagged for a closer look

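A locus without a gene name, which no comparison of the report used, carried more reads after TGF-β1. It lies at GRCh38 chromosome 7, 131661922 to 131662295, 105294 bases from PODXL, with 49, 56 and 59 reads in the control libraries and 76, 88 and 78 in the TGF-β1 libraries. Its mean was 2.32 ± 0.174 CPM in control and 3.43 ± 0.443 CPM after TGF-β1 (SD, n = 3), a ratio of 1.47. It was picked out because its level exceeded that of the control libraries, so no test is given.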

How the results depend on the processing

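PODXL2, EZR and MSN kept their direction and their call under all 13 alternatives each, with log2 fold changes of -0.43 to -0.28, -0.55 to -0.41 and 0.57 to 0.71. The log2 fold change of PODXL was 3.08 with total counts only and 3.14 to 3.22 when single libraries were left out. RDX kept its direction and was called with DESeq2 (0.17, adjusted p 0.0496), with all genes with a count (0.17, adjusted p 0.0333) and with the replicate block (0.16, adjusted p 0.0322), and its value was 0.13 to 0.21 when single libraries were left out. The CD34 read ratio was 0 to 0.0919 when single libraries were left out, and it was 0 without TGF-β1 replicate 2, which holds the only read of its group. Scaffold calls went from 2 to 1 with total counts only, and were 1 to 2 when single libraries were left out. Sialomucin calls went from 0 to 1 with total counts only, and were 0 to 1 when single libraries were left out. In raw counts, not divided by length, the shares differed by -12.4 points for EZR, -1.57 for RDX and 13.9 for MSN, and the PODXL-to-ERM ratio was 7.07-fold higher. Of the 5 genes nearest to PODXL, 3 were also among the 5 with the highest Pearson correlation within 0.5 of the PODXL log2 fold change, a choice among 15 genes. Except where a value is named with its construction, the cause was not tested.

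Deviations from the group mean had correlations of 0.111, -0.0148 and 0.0695 between samples of the same replicate number. Other pairs of a control and a TGF-β1 sample had -0.145 to 0.0897. With 3 libraries per group these values cannot decide whether samples of the same number were paired. With the replicate block 6790 genes were called against 6582 without it. Without single libraries 5333 to 7196 genes were called, and with DESeq2 5697. The alternative that adds pseudogene reads could not be run, since 0 such entries were listed. Depth limits CD34 and the marker traces, where a few reads decide a value.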
